A study of Schizosaccharomyces pombe with 6 samples.

Results

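The core histone genes of the fission yeast Schizosaccharomyces pombe were examined: hta1 and hta2 for histone H2A, htb1 for H2B, hht1, hht2 and hht3 for H3, and hhf1, hhf2 and hhf3 for H4. The list of 9 genes was set before the tests given here, but with earlier results of these data known. It was matched by symbol to the systematic IDs of the array table, where all 9 were found among 5483 features. RNA came from 3 strains with 2 biological replicates each, 1 array per replicate: the wild-type parent strain SPB76, strain SPB101 lacking cid14 (cid14delta) and strain SPB103 lacking air1 (air1delta). Cultures of all strains were grown at 30 °C in the rich medium YES and harvested at an optical density of 0.5, and no other allele or agent is given in the labels. Each strain name appears with a single genotype, so whether a deletion behaves alike in an independent isolate was not measured.

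Core histones form the nucleosome, in which DNA wraps around an octamer of H2A, H2B, H3 and H4. Because free histones are harmful, cells make most histone mRNA in S phase and keep the amounts of the 4 classes matched. In fission yeast each H3 gene lies head to head with an H4 gene, hta1 lies head to head with htb1, and hta2 stands alone; htb1 is the only H2B gene. Cid14 adds short A tails to RNA as a noncanonical polymerase, and Air1 carries zinc knuckles that bind RNA. Both belong to the TRAMP complex, which marks nuclear RNAs for decay by the exosome. In the budding yeast Saccharomyces cerevisiae, the related TRAMP polymerases and the exosome have been linked to the level of histone mRNA, and the comparison of each mutant with its parent asks how these transcripts stood without the fission yeast factors.

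The deposited values are log2 array signals, and array medians lay between 9.21 and 9.29. The deleted genes fitted the labels: cid14 (SPAC12G12.13c) had values of 3.91 and 3.63 in cid14delta against 8.92 and 8.84 in wild type, and air1 (SPBP35G2.08c) had 4.42 and 4.90 in air1delta against 10.49 and 10.40. Array identifiers place the wild-type and cid14delta arrays in 1 array series and the air1delta arrays in another. The labels also give the air1delta arrays other days. Array series, day and strain therefore cannot be told apart wherever air1delta is compared. Histone genes gave strong signal, from 10.81 to 14.28 over the 6 arrays, where the highest value in the table was 14.80. Signal values of different genes are not compared with each other here, because each gene has its own probes. Copies of H3 and of H4 are very similar in sequence and may cross-hybridise, so a value of 1 copy can hold signal of the others.

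At most 1 of the 9 histone genes was called in any comparison. In cid14delta, 0 of the 9 genes passed the test, and in air1delta only hht3, an H3 gene, passed, with a fall of 0.27 on the log2 scale (1.21-fold). The same gene was the only one to pass between the mutants, 0.40 lower in air1delta than in cid14delta (1.32-fold). Tests were two-sided limma fits over all features with Benjamini-Hochberg adjustment, called at an adjusted p under 0.05, and each change is given with its standard error (n = 2 arrays per strain). By that rule 8.66% of all features were called in cid14delta (4.78% higher, 3.88% lower) and 26.2% in air1delta (16.4% higher, 9.72% lower). Between the mutants 10% were called (5.51% higher and 4.5% lower in air1delta). With only 9 genes the counts of 0 and 1 are not shown to differ from these shares.

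**Figure D1:**
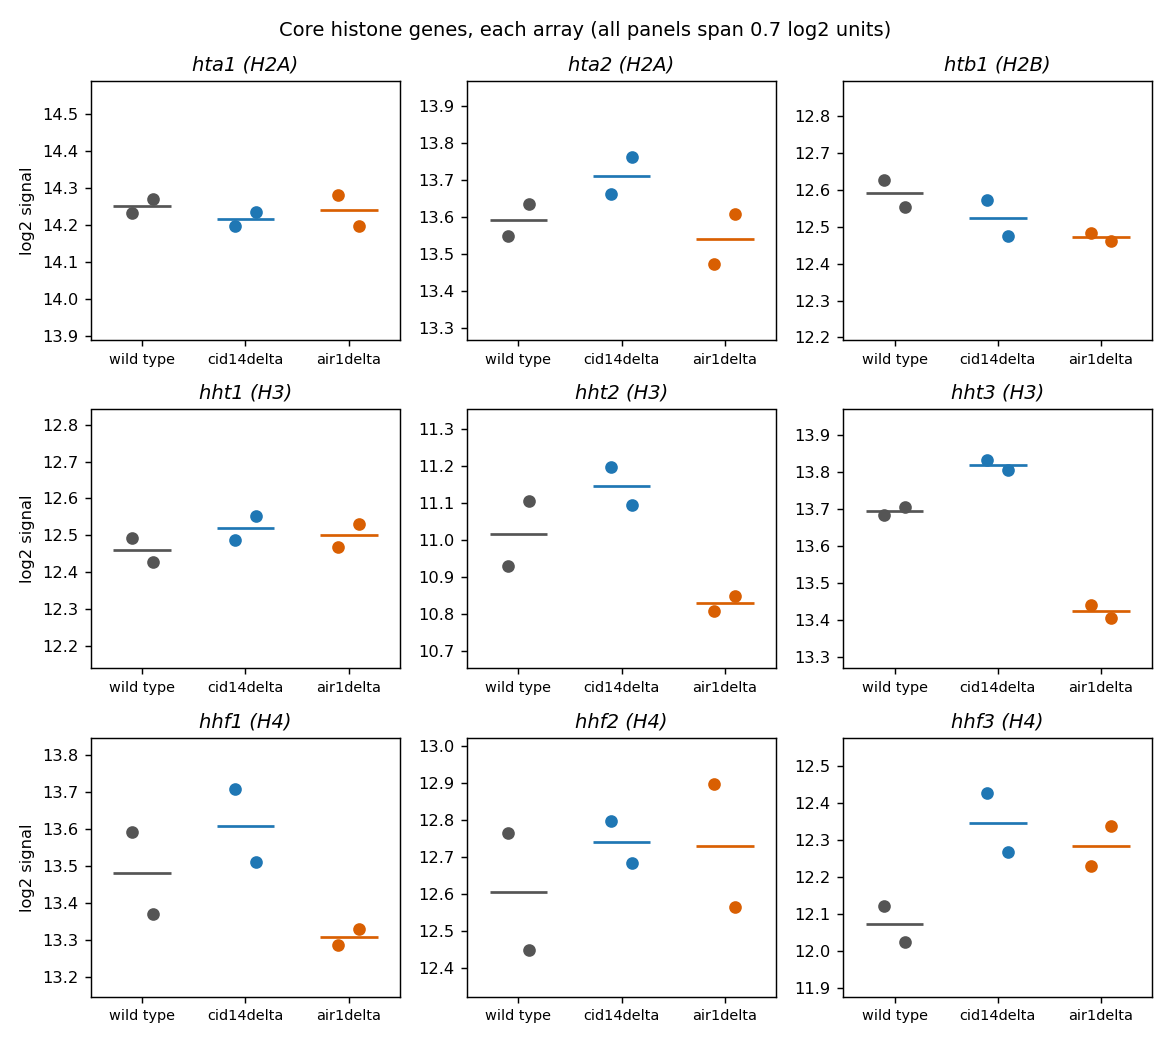
Log2 signal (vertical axis) of each core histone gene on each array, in 3 strains (horizontal axis); points are arrays, bars are strain means, and every panel spans 0.7 log2 units. In hht3 the arrays of the 3 strains lie apart, with air1delta lowest at 13.44 and 13.41, while in hta1, hht1 and hhf2 the strains overlap.

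The H2A and H2B genes came first. The H2A gene hta1 (SPCC622.08c) read 14.23 and 14.27 (wild type), 14.20 and 14.24 (cid14delta) and 14.28 and 14.20 (air1delta). These values overlapped in all strains, and the changes were -0.04 ± 0.06 in cid14delta (adjusted p = 0.74) and -0.01 ± 0.06 in air1delta (adjusted p = 0.895). The second H2A gene, hta2 (SPAC19G12.06c), read 13.55 and 13.64 (wild type), 13.66 and 13.76 (cid14delta) and 13.47 and 13.61 (air1delta). Its cid14delta arrays lay above the wild-type arrays, yet the difference of 0.12 ± 0.08 did not pass (adjusted p = 0.362), and air1delta overlapped wild type. For the H2B gene htb1 (SPCC622.09) the values were 12.63 and 12.55 (wild type), 12.57 and 12.47 (cid14delta) and 12.48 and 12.46 (air1delta). Both air1delta arrays were below both wild-type arrays, by -0.12 ± 0.07 on average, which did not pass (adjusted p = 0.233).

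Of the H3 genes, hht1 (SPAC1834.04) read 12.49 and 12.43 (wild type), 12.49 and 12.55 (cid14delta) and 12.47 and 12.53 (air1delta), and all strains overlapped. The gene hht2 (SPBC8D2.04) read 10.93 and 11.10 (wild type), 11.20 and 11.09 (cid14delta) and 10.81 and 10.85 (air1delta). Its air1delta arrays were lower than every other array, but neither the difference from wild type (-0.19 ± 0.08, adjusted p = 0.148) nor that from cid14delta (-0.32 ± 0.08, adjusted p = 0.0694) passed.

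In hht3 (SPBC1105.11c) the strains did not overlap: wild type read 13.69 and 13.71, cid14delta 13.83 and 13.81, and air1delta 13.44 and 13.41. Replicates lay within 0.04 of each other in every strain, closer than the median gap between replicates over all features, which ran from 0.079 to 0.092. The gene fell by 0.27 ± 0.06 in air1delta (adjusted p = 0.0249, lower in 2 of 2 arrays), and its 95% interval ran from -0.41 to -0.13. In cid14delta the change was 0.13 ± 0.06 and did not pass (adjusted p = 0.205). Between the mutants hht3 was lower in air1delta by -0.40 ± 0.06 (adjusted p = 0.0277), the 664th largest difference of 5483 features. The call in air1delta against wild type was lost after quantile normalization (-0.18, adjusted p = 0.0629) and after cyclic loess (-0.17, adjusted p = 0.072). It was also lost in a fit to the 4 arrays of both strains (adjusted p = 0.0544), and the change stayed negative throughout. Without any single array of the 6 it was lost too, with changes from -0.29 to -0.253. Such fits leave 1 strain with a single array and call fewer of all features. These losses alone do not show an unstable change. The call between the mutants held after both normalizations (adjusted p = 0.027 and 0.0271) but not with a replicate block (adjusted p = 0.0565). It was also lost without any 1 array of either mutant, with changes from -0.416 to -0.378 over the fits without single arrays.

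Standard errors of the changes were largest for the H4 genes hhf1 (0.11) and hhf2 (0.15), while the H4 gene hhf3 had 0.08. The gene hhf1 (SPAC1834.03c) read 13.59 and 13.37 (wild type), 13.71 and 13.51 (cid14delta) and 13.29 and 13.33 (air1delta). Its air1delta arrays were lowest, with a difference from wild type of -0.17 ± 0.11 (adjusted p = 0.269) and from cid14delta of -0.30 ± 0.11 (adjusted p = 0.123). The gene hhf2 (SPBC8D2.03c) read 12.76 and 12.45 (wild type), 12.80 and 12.68 (cid14delta) and 12.90 and 12.57 (air1delta). Its replicates differed by up to 0.33, the widest gap of any histone gene, and the strains overlapped throughout. For hhf3 (SPBC1105.12) wild type read 12.12 and 12.02, cid14delta 12.43 and 12.27, and air1delta 12.23 and 12.34. Both mutants lay above wild type, by 0.27 ± 0.08 in cid14delta (1.21-fold, adjusted p = 0.102) and by 0.21 ± 0.08 in air1delta (1.16-fold, adjusted p = 0.122), and neither difference passed.

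**Figure D2:**
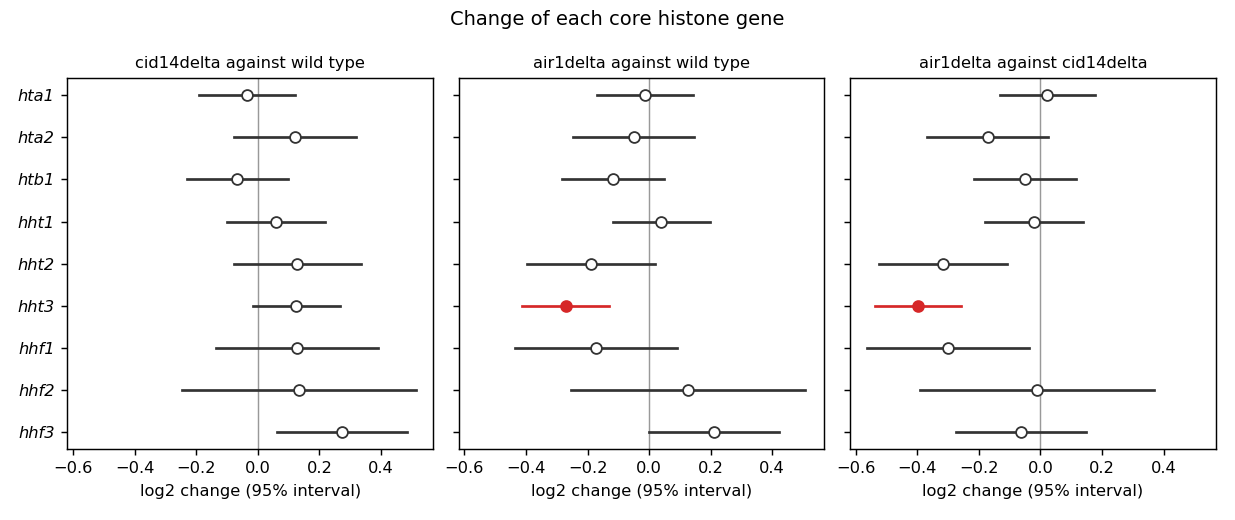
Log2 change of each core histone gene with its 95% interval (horizontal axis) in 3 comparisons; filled red points passed the test and open points did not. Only hht3 is filled, at -0.27 in air1delta against wild type and at -0.40 in air1delta against cid14delta.

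Over the 9 genes, cid14delta had the highest mean of the strains in 7 (hta2 and all H3 and H4 genes) and wild type in hta1 and htb1. In cid14delta, 7 of the 9 changes were positive, as were 56% of all changes, and the median was 0.13, beside a median of 0.03 over all features. The median of the 9 ran from 0.0274 to 0.139 without single arrays. The arrays did not overlap, with cid14delta higher, in 3 of the 9 (hta2, hht3, hhf3), where 35% of all features were so placed, and 1 gene (hhf3) reached an unadjusted p under 0.05, as did 29.9% of features. In air1delta the median was -0.05, beside 0.03 over all features, and became 0.05 both after quantile normalization and after cyclic loess. Arrays did not overlap with air1delta lower in 4 (htb1, hht2, hht3, hhf1), against 29.7% of features, and with air1delta higher in 1 (hhf3), against 39.3%. Only hht3 reached an unadjusted p under 0.05 there, against 41.2% of features. Between the mutants 8 of 9 differences were negative, where 54.3% of all features had a positive one, with a median of -0.06 beside 0.02 over all features. Arrays did not overlap with air1delta lower than cid14delta in 4 (hta2, hht2, hht3, hhf1), against 29% of features, and 3 (hht2, hht3, hhf1) reached an unadjusted p under 0.05, against 31.9%. Both mutants were compared with the same wild-type arrays, and all 3 comparisons share arrays.

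How large a change could have been missed was read from the 95% intervals of single genes. In cid14delta the widest bounds were those of hhf2, from a fall of 1.19-fold to a rise of 1.43-fold. In air1delta the lowest bound was that of hhf1, a fall of 1.35-fold, and the highest that of hhf2, a rise of 1.42-fold. These bounds hold on the scale of the array signal, whose relation to RNA amount near the top of the range was not measured.

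Genes of 1 head-to-head pair did not always move alike. In cid14delta the members of each pair differed in their changes by 0.15 or less, with 0.13 for hht3 and 0.27 for hhf3 the most unequal. In air1delta hht3 had -0.27 and its partner hhf3 had 0.21. The difference between hht3 and hhf3, set to a mean of 0 in wild type, was -0.06 and 0.06 (wild type), -0.21 and -0.08 (cid14delta) and -0.41 and -0.56 (air1delta), so the air1delta arrays stood apart from all others. The pair of hht2 and hhf2 had -0.19 and 0.13 in air1delta, but its difference read -0.25 and 0.25 in wild type against -0.50 and -0.13 in air1delta, which overlapped. The pair of hht1 and hhf1 had 0.04 and -0.17 in air1delta. Its difference was -0.08 and 0.08 (wild type), -0.20 and 0.06 (cid14delta) and 0.20 and 0.22 (air1delta). Here too the air1delta arrays stood apart. Relative to wild type, hht1 was raised against its partner, where hht3 was lowered against its own. For hta1 and htb1 the difference was -0.06 and 0.06 (wild type), -0.04 and 0.10 (cid14delta) and 0.14 and 0.07 (air1delta), so air1delta overlapped cid14delta. Among all single features, air1delta arrays did not overlap wild type in 69% and cid14delta in 65.2%. These differences within pairs were not tested.

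Genes next to the histone genes were read because the labelled target was double-stranded, so that RNA from overlapping genes on opposite strands gives signal to both. In the reference annotation 2 histone genes overlap another gene on the array: hht3 overlaps rav1, which encodes a subunit of a complex that assembles the vacuolar proton pump, and htb1 overlaps sec5, which encodes an exocyst subunit. The gene rav1 (SPBC1105.10) read 8.33 and 8.31 (wild type), 8.29 and 8.29 (cid14delta) and 8.04 and 8.05 (air1delta), so its air1delta arrays were lowest, as they were for hht3. It fell by 0.28 ± 0.05 in air1delta (adjusted p = 0.0218) and was lower there than in cid14delta by -0.25 ± 0.05 (adjusted p = 0.0496). The change of rav1 in cid14delta was -0.03 ± 0.05 (adjusted p = 0.72). Without any single array of the 6, rav1 lost its call in air1delta against wild type (changes from -0.292 to -0.269) and against cid14delta (-0.253 to -0.242). The part that shared signal has in the values of hht3 and rav1 was not tested. The gene sec5 (SPCC622.10c) read 10.36 and 10.48 (wild type), 10.28 and 10.31 (cid14delta) and 10.18 and 10.03 (air1delta). It fell by 0.32 ± 0.08 in air1delta (adjusted p = 0.0408), where htb1 had -0.12. The call of sec5 was lost with the replicate block (adjusted p = 0.0704) and without any single array (changes from -0.393 to -0.24). Of the other histone genes, 5 overlap only noncoding RNAs that are not on the array, and hht2 and hhf1 overlap no other gene.

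**Figure D3:**
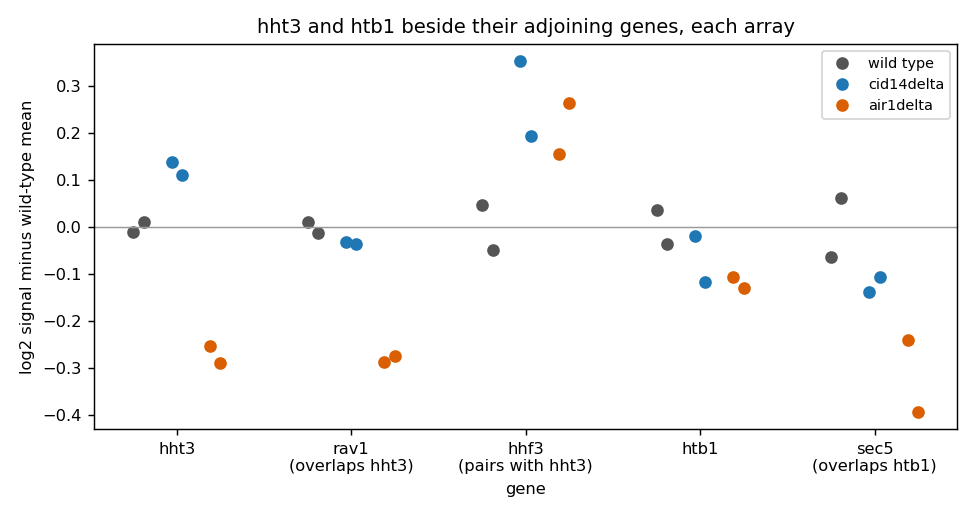
Log2 signal of each array minus the wild-type mean of the same gene (vertical axis) for hht3, for rav1 that overlaps it and hhf3 that pairs with it, and for htb1 and the overlapping sec5. In air1delta hht3 and rav1 both lie between -0.25 and -0.29, while hhf3 lies at 0.16 and 0.27.

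In cid14delta 4.78% of all features rose and 3.88% fell. Of the 10 distinct array neighbours of histone genes that are not histone genes themselves, 0 rose and 2 fell there. These were rsd1, beside hta2, with -0.42 ± 0.07 (adjusted p = 0.0306), and aro1, an enzyme gene of aromatic amino acid synthesis beside hhf1, with -0.37 ± 0.07 (adjusted p = 0.0413). With the replicate block neither passed (adjusted p = 0.0587 and 0.0713). Neither passed without any single array, with changes from -0.484 to -0.353 for rsd1 and from -0.422 to -0.31 for aro1. In air1delta 0 rose and 2 fell, rav1 and sec5, where 16.4% of all features rose and 9.72% fell. Of the other neighbours, mce1, alg9, sfi1 and vps68 had changes from -0.19 to 0.09 in both mutants. SPCC622.07 had 0.43 and SPBC1105.13c had 0.37 in cid14delta, both not called.

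The histone variant genes were read beside the core genes, and both rose in air1delta, as did 16.4% of all features. The H2A.Z gene pht1 read 11.32 and 11.14 (wild type), 11.50 and 11.52 (cid14delta) and 11.53 and 11.53 (air1delta), and both mutants lay above wild type. It rose by 0.30 ± 0.08 in air1delta (adjusted p = 0.04; 0.0602 with the replicate block and 0.0785 after median centring), and had 0.28 in cid14delta (adjusted p = 0.0822). The centromeric H3 gene cnp1 read 6.83 and 6.84 (wild type), 7.13 and 6.98 (cid14delta) and 7.28 and 7.17 (air1delta). It rose by 0.39 ± 0.08 in air1delta (adjusted p = 0.0233), a call lost after quantile normalization (0.19, adjusted p = 0.186) and cyclic loess (0.21, adjusted p = 0.128), and had 0.22 in cid14delta (adjusted p = 0.134). In air1delta the calls of both were lost without wild type replicate 2, air1delta replicate 1 or air1delta replicate 2. That of pht1 was also lost without either cid14delta array, and that of cnp1 without wild type replicate 1. Over the fits without single arrays, changes in air1delta ran from 0.212 to 0.39 for pht1 and from 0.332 to 0.441 for cnp1.

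Among 9 regulators of histone genes, 0 rose, 1 fell and 8 did not pass in each mutant against wild type, with medians of -0.00033 in cid14delta and -0.07 in air1delta. Of all features 3.88% fell in cid14delta and 9.72% in air1delta. The gene that fell was teb1, which encodes a Myb-domain protein that binds histone gene promoters. It read 8.45 and 8.49 (wild type), 8.11 and 8.20 (cid14delta) and 8.09 and 8.10 (air1delta), so that both mutants lay below wild type. The fall was 0.31 ± 0.06 in cid14delta (adjusted p = 0.0429; 0.0709 with the replicate block) and 0.37 ± 0.06 in air1delta (adjusted p = 0.0163). It was not called in cid14delta without any single array (adjusted p from 0.0819 to 0.159), nor in air1delta without wild type replicate 2 (0.0621), air1delta replicate 1 (0.0688) or air1delta replicate 2 (0.0676). The gene ams2, for a GATA-type factor of S-phase histone transcription, read 10.00 and 10.05 (wild type), 9.98 and 9.93 (cid14delta) and 9.90 and 10.02 (air1delta), and had -0.07 in each mutant. Between the mutants 0 of the 9 passed, 2 reached an unadjusted p under 0.05, and the smallest p was that of slm9, a HIRA complex gene (-0.18, adjusted p = 0.11).

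Of 14 histone chaperone genes, 0 passed in cid14delta (1 at an unadjusted p under 0.05), with the smallest p for the nucleosome assembly gene nap1 (-0.17, adjusted p = 0.139) and a median of 0.05. In air1delta 6 rose, 1 fell and 7 did not pass, with a median of 0.10. Of all features 8.66% were called in cid14delta, and in air1delta 16.4% rose and 9.72% fell. The chaperone count in air1delta was 3 and 2 after quantile normalization, 3 and 3 after median centring, and 5 and 2 after cyclic loess. It was 3 and 1 with the replicate block over 6 arrays, and 0 and 1 with that block over 4 arrays. Fewer were called without any single array, and chz1 was called in each such fit. The gene chz1, for a chaperone of H2A.Z and H2B, read 9.51 and 9.49 (wild type), 9.39 and 9.49 (cid14delta) and 8.50 and 8.50 (air1delta), a fall of 1.00 ± 0.06 in air1delta (adjusted p = 0.00486). Rises in air1delta were led by the CENP-A chaperone gene sim3 (0.46 ± 0.10), the CAF-1 subunit gene pcf3 (0.36 ± 0.06) and the FACT subunit gene pob3 (0.32 ± 0.07). Between the mutants chz1 was lower in air1delta (-0.94), and pcf3 (0.35) and asf1 (0.32), a chaperone gene for H3 and H4, were higher; with the replicate block or the shared-day term only chz1 was called.

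**Figure D4:**
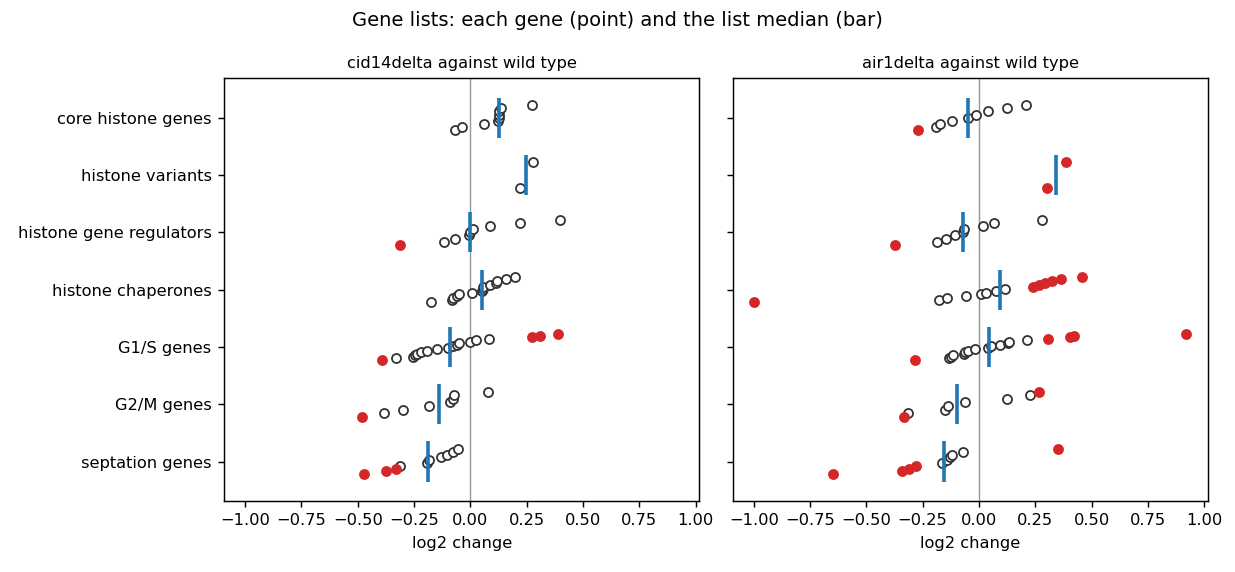
Log2 change (horizontal axis) of each gene in 7 lists (rows) in cid14delta and air1delta against wild type; points are genes, filled red where called, and blue bars are list medians. Core histone genes spread from -0.07 to 0.27 in cid14delta and from -0.27 to 0.21 in air1delta, while chz1 lies lowest among the chaperones in air1delta.

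Because histone mRNA is tied to S phase, genes of other cell cycle steps were read beside it. Of all features 4.78% rose and 3.88% fell in cid14delta, 16.4% and 9.72% in air1delta, and 5.51% and 4.5% between the mutants. The lists were not tested against these shares. Of 18 G1/S genes in cid14delta 3 rose, namely cig2 (0.28), yox1 (0.31) and ctp1 (0.39), while 1 fell, cdt2 (-0.39). The other 14 did not pass, the median was -0.09, and with the replicate block 0 passed. The balance turned with the scaling: 1 rose (ctp1) and 3 fell after median centring, and 1 rose and 1 fell after quantile normalization and after cyclic loess, with cig2 and yox1 not called under any of these. In air1delta 4 rose, among them ctp1 (0.92) and rep2 (0.42), 1 fell and 13 did not pass, with a median of 0.05 that became -0.03 after median centring. Without single arrays no G1/S call held in cid14delta, while ctp1 was called in each such fit in air1delta. Between the mutants ctp1 (0.53), cdc18 (0.41), rep2 (0.40) and suc22 (0.37) were higher in air1delta, and 0 of the 18 were called with the replicate block. Of 8 G2/M genes, slp1 fell in cid14delta (-0.48), plo1 rose (0.27) and imp2 fell (-0.33) in air1delta, and the others did not pass, with medians of -0.14 and -0.10. The replicate block left 0 of these calls (adjusted p = 0.07 for slp1, 0.0596 for plo1 and 0.0626 for imp2), and so did the shared-day term. The gene plo1 was also not called after quantile normalization, median centring or cyclic loess, and slp1 was not called after quantile normalization or cyclic loess. Of 10 septation genes, 3 fell and 0 rose in cid14delta (median -0.19), with eng1 at -0.47, chs2 at -0.38 and adg2 at -0.33, and with the replicate block 0 passed. In air1delta 4 fell and agn1 rose (median -0.15), with adg2 at -0.65. Calls of septation genes were also lost without single arrays, though adg2 was called in each such fit in air1delta. Of the G2/M calls, only that of imp2 in air1delta without wild type replicate 1 was kept. The mean over the septation genes was 11.01 and 11.02 (wild type), 10.81 and 10.77 (cid14delta) and 10.83 and 10.82 (air1delta). The mean over the 9 histone genes was 12.89 and 12.84 (wild type), 12.99 and 12.93 (cid14delta) and 12.82 and 12.81 (air1delta). The part of cell cycle composition in the histone values was not tested.

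The histone genes followed their mean profile unevenly. Over the 6 arrays, the correlation of each histone gene with the mean of the other 8 ran from -0.49 for hta1 to 0.87 for hhf1. Among 2948 other named genes with a standard deviation of at least 0.1 over the arrays, 57 correlated with the mean of the 9 at r above 0.9. The 5 closest were rpl26 (r = 0.988), mix17 (0.985), pwp2 (0.983), mug86 (0.983) and shr3 (0.980). Their means were all highest in cid14delta and lowest in air1delta. This order followed from the pick, because the mean of the 9 had it too. Each correlation covers 6 arrays of 3 strains and is given as a description.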

How the data were processed

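Log2 expression values of 5483 features on 6 Affymetrix tiling arrays were deposited by the authors in 1 table, with the scale read from their range. The submitters' processing notes name affy; how background, normalization and probe summary were handled, and which genome build, is not given in the sources used here. Per the labels' protocols, total RNA was extracted with hot phenol and biotin-labelled as double-stranded target. IDs were matched to RefSeq's gene table (assembly ASM294v3), used for names and neighbouring genes: 5350 matched, 13 of them through a synonym, and 4254 had a symbol.

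Differences between strains were fitted in limma 3.58.1 (R 4.3.3), with strain as the only factor over all 6 arrays (3 residual and 2.51 prior degrees of freedom), two-sided, adjusted over all features by Benjamini and Hochberg; the fit was tested on simulated data. The number of arrays limits the precision. Members, lists and rules were chosen with earlier results of these data known. Named were the 9 genes, the deleted genes, both variant genes, array neighbours, from each list up to 4 called genes per comparison with the smallest p or otherwise the gene with the smallest p, and the 5 features most like the mean profile; ams2 was added after its values were seen.

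The labels give wild-type and cid14delta arrays of the same number a common day, which pairs them; deviations of same-numbered arrays correlated at r = -0.00632 for these strains, 0.0413 for wild type and air1delta, and 0.0159 for the mutants. Alternatives were quantile normalization, median centring, cyclic loess, 4-array fits, the replicate block, a shared-day term, trended or robust moderation, a filter on low values (mean of at most 4.659, 402 features) and leaving out each array. A correction for coding length was not run.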

Additional observations from a re-analysis of the deposited data

Results flagged for a closer look

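The change in air1delta differed from that in cid14delta, by the direct limma contrast of the mutants, for 15 of the genes named here. List genes were named partly because they were called, also in this contrast, so 15 is not a share of a fixed set. Of all features 10% were called there. Among the histone genes this was hht3 (-0.40, adjusted p = 0.0277), and of its neighbours rav1 (-0.25) and rsd1 (0.35). Of the chaperones it held for chz1 (-0.94), pcf3 (0.35) and asf1 (0.32). Cell cycle genes that differed were ctp1 (0.53), cdc18 (0.41), rep2 (0.40), suc22 (0.37), slp1 (0.42), plo1 (0.36), adg2 (-0.32) and agn1 (0.54). The last was mug86 (-0.37), from the genes most like the mean histone profile. That profile was higher in cid14delta than in air1delta on these same arrays, so the direction for mug86 followed from its pick. With the replicate block, and likewise with a term for the shared day, 13 of the 15 calls were lost, hht3 among them, and those of chz1 and agn1 held. The air1delta and cid14delta arrays belonged to different array series and days, so array series, day and strain cannot be told apart. With 2 arrays per strain, no search for single arrays that stand apart was possible.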

How the results depend on the processing

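In cid14delta against wild type 0 histone genes were called in any of the 16 alternatives, which are not all distinct, with a lowest adjusted p of 0.0597 (hhf3). The single call in air1delta against wild type (hht3) became 0 under quantile normalization, cyclic loess, the 4-array fit, the 4-array replicate block and without any 1 array (0 to 0). That between the mutants became 0 with the 6-array or 4-array replicate block or the shared-day term, 2 with trended moderation, which added hht2, and ranged from 0 to 1 without single arrays. Over all features the count in cid14delta moved from 475 to 69 with 4 arrays, 180 with the shared-day term and 1 to 338 without single arrays. In air1delta it moved from 1434 to 870 with 4 arrays and 273 to 952 without single arrays, and between the mutants from 549 to 68 with the shared-day term and 2 to 488 without single arrays. With the replicate block it was 179 over 6 arrays and 1 over 4 arrays in cid14delta, 208 over 4 arrays in air1delta, and 72 and 100 between the mutants. Of the features called in cid14delta, 262 were higher and 213 lower, against 157 and 177 after quantile normalization, 190 and 355 after median centring and 188 and 165 after cyclic loess. In air1delta 901 were higher and 533 lower, against 616 and 662, 640 and 826, and 695 and 607. Array medians lay 0.065 to 0.079 above wild type in the mutants, and the part of this offset in the splits was not tested.

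Of the named genes that passed, 12 did so in cid14delta, 21 in air1delta and 15 between the mutants. List genes were named partly because they were called, so these counts are not shares of a fixed set. Of all features 8.66%, 26.2% and 10% passed in the same comparisons. The calls of the deleted cid14 in cid14delta, and of the deleted air1, chz1, ctp1 and adg2 in air1delta, held whichever array was left out. All others were lost without at least 1 array. A fit without 1 array leaves a strain with a single array and calls fewer of all features. These losses therefore do not tell an unstable change from a weaker test.

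Signs turned for histone changes near 0 that were not called; the cause was not tested. In cid14delta these were hta1 (0.0696 after quantile normalization, 0.0714 after cyclic loess), hht1 (-0.0066 after median centring) and hhf2 (-0.0231 to 0.293 without single arrays). In air1delta, hta1 became 0.0568 and hta2 0.0516 after quantile normalization, 0.102 and 0.05 after cyclic loess, and hht1 -0.0318 after median centring. Without single arrays there, hta1 ran from -0.0556 to 0.0305, hta2 from -0.119 to 0.0177, and hhf2 from -0.0401 to 0.291. Between the mutants hta1 became -0.0128 and hhf2 0.0147 after quantile normalization, and hhf2 0.00213 after cyclic loess. Without single arrays there, hta1 ran from -0.0203 to 0.0658, hht1 from -0.0522 to 0.0132, hhf2 from -0.175 to 0.156, and hhf3 from -0.143 to 0.0158. The planned correction for coding length was not run. With 2 arrays per strain, 95% intervals of histone genes reach up to 1.48-fold.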
